A study of Mus musculus with 3 samples.

Results

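The promoters described here belong to genes whose names mark them as chromatin modifiers or remodellers. Their contacts were measured in mouse erythroid cells by nuclear-titrated (NuTi) Capture-C. A viewpoint is a DpnII fragment, usually at a gene promoter, that was pulled down with probes. Members were taken by gene name alone. A viewpoint was a member where a part of its name began with Kdm, Smarc, Setd, Hdac, Ino80, Dnmt, Prmt or Sirt, or with Kat, Chd or Brd followed by a digit. Hdac6 was left out, as were names listed for more than 1 viewpoint. The rule found 72 viewpoints of 70 genes among 7176 viewpoints with a position and contacts. Brd2 and Sirt4 each had a pair of viewpoints. Some fragments also carry the name of another gene, among them those of Setd7, Hdac3, Prmt1, Smarcc2 and Ino80e. They are called by the member gene here, and their contacts cannot be assigned to it alone. Every member gene was found in the mm9 annotation at its viewpoint, 6 of them under an older symbol, and for 64 members an annotated transcription start lay inside the fragment.

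Chromatin modifiers add or remove chemical groups on histones and DNA, and remodellers use ATP to slide, evict or exchange nucleosomes. Writers place acetyl or methyl groups, erasers take them off, readers such as bromodomain proteins bind acetylated histones, and the SWI/SNF, ISWI, CHD and INO80 families move nucleosomes. Erythroid precursors rely on several of them while globin genes are switched on and the nucleus condenses. Most of these genes are expressed in many cell types, so their promoters are mainly of the housekeeping kind.

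The cells came from spleens of F1 hybrid mice of the C57BL/6-cross-CBA/J kind that had been made anaemic with 3 doses of phenylhydrazine, 12 h apart, and were killed on day 5. Spleen cells were selected for ter119, a surface marker of erythroid cells, and no untreated cells or other cell type were included. The 3 libraries form 1 group, so there is no comparison between conditions. The labels do not say whether the libraries came from separate animals, and the spread between them may be technical. The value columns carry no sample names and are called libraries a, b and c here. The table holds contacts and no expression, so the cell type was not checked against marker genes.

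Library a held 18230099 cis events, library b 34428035 and library c 34233560, where a cis event is a unique ligation between a viewpoint and a fragment of the same chromosome. Members took 155272, 279674 and 277356 of these, or 0.821% of all events. Libraries b and c differed by no more than sampling noise over the members, with a chi-square per window of 0.998, while library a differed from b at 1.10 and from c at 1.07. Over all viewpoints b and c differed slightly, at 1.02 on 526407 degrees of freedom, which is above sampling noise, and library a differed from both at 1.14. Each mean below takes libraries b and c as 1 sample, as their members' counts allow, and library a as the other (n = 2). The SD therefore leaves out the spread between b and c, which can be wide where events are few. Library a gave 0.613 times the events of the mean of b and c at the median member, and from 0.205 for the deacetylase Hdac2, chosen after the values were seen, to 0.737 for Kat5.

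Sequences of Brd7, Smarcc1 and Setdb1 are shown first, on the strand given, and of these only the Setdb1 pair bears on a result. The probes were 70 bases long and ended at the DpnII sites of a viewpoint, as was seen for the 15 probes of 8 members whose sequences could be compared, all 15 of them identical to the mm9 fragment end. Those of Brd7, a bromodomain reader with a called distal contact, lie at chr8:90885735-90885804 and chr8:90886275-90886344 on the forward strand, outside annotated exons, with the DpnII site in capitals.
Brd7 left probe: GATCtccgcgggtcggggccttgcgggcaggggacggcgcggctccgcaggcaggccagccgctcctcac
Brd7 right probe: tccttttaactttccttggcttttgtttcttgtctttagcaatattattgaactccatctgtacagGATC
For Smarcc1 the fragment with the most events in its called window is shown, chr9:109778720-109778886 in Cdc25a, with its DpnII sites in capitals. It held 4 of the window's 24 events and was not called by itself.
Smarcc1 fullest fragment: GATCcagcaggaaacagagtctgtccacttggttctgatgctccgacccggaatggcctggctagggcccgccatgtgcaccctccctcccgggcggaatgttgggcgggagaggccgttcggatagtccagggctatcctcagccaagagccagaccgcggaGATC
The last pair explains a caution for Setdb1. The viewpoint at chr3:95160869-95160948, read on the reverse strand, and its strongest contact fragment at chr3:95231656-95231735, read on the forward strand, hold the same 80 bases.
Setdb1 viewpoint: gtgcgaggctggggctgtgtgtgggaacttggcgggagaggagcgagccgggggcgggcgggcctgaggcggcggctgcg
Setdb1 contact: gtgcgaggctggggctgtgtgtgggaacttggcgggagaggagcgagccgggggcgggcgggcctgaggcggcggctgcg

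Viewpoint depth varied widely among the members. A viewpoint with at least 1000 events over the 3 libraries was counted as usable. This held for 69 of the 72 members (95.8%), beside 93.6% of all viewpoints. The median member had 6154.5 events and the median of all viewpoints was 6481.5. Kat2b, an acetyltransferase, had 136 events in all, with 29, 54 and 53 in libraries a, b and c. Kdm4a, a histone demethylase, had 695 events, with 176, 236 and 283 in the libraries. Members under the minimum enter no result on distal contacts.

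Roles follow the gene name alone. Setd, Kat, Dnmt and Prmt names count as writers, Kdm, Hdac and Sirt as erasers, Brd as readers, and Smarc, Chd and Ino80 as remodellers. Writers thus include Setd3, which methylates actin, and Prmt3, which methylates a ribosomal protein. By role, the median depth was 3885.5 events for the 20 writers, 9569 for the 26 erasers, 7667 for the 6 readers and 6154.5 for the 20 remodellers. Setd7, a lysine methyltransferase, was the deepest writer with 6836, 12928 and 12984 events in libraries a, b and c. Among erasers the deepest was the deacetylase Hdac8, with 71762 events. It lies on chromosome X, as do Kdm6a (31669) and Kdm5c (24107), histone demethylases that act on repressive and active methyl marks respectively. No other member lay on chromosome X. The deepest remodeller, Chd7, had 71191 events and the shallowest, Smarca4, the BRG1 motor of SWI/SNF, had 2137. The second Brd2 viewpoint was the deepest reader, with 17376 events. Well-known members sat on both sides of the median. Dnmt1, the maintenance DNA methyltransferase, had 1890 events, Hdac1 had 1888 and Kdm1a, the LSD1 demethylase, had 1271, whereas Hdac3 had 14790, Sirt6 15644 and Prmt1, the main arginine methyltransferase, 17957.

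**Figure D1:**
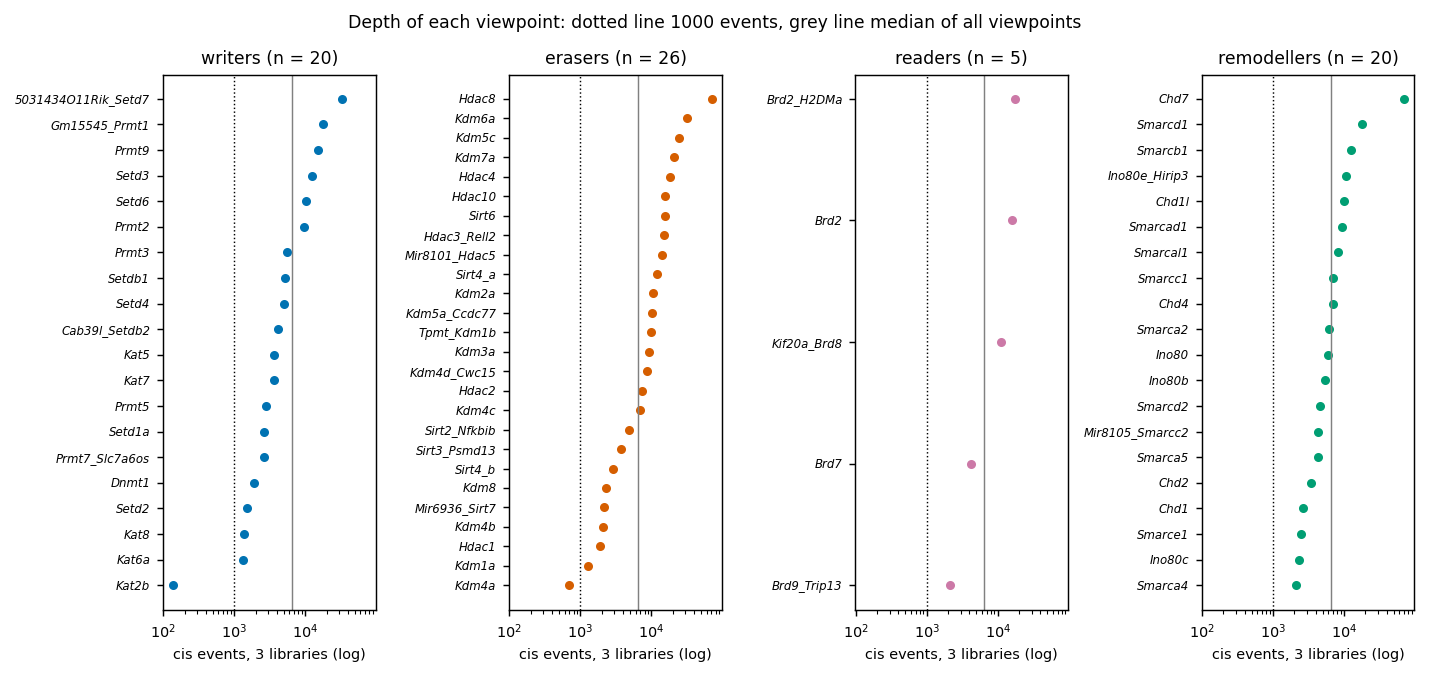
Cis events summed over the 3 libraries (log axis) for 71 of the 72 member viewpoints, by role. Each point is 1 viewpoint, the dotted line marks 1000 events and the grey line the median of all viewpoints, 6481.5; Kat2b and Kdm4a lie left of the dotted line.

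The fragments themselves resembled those of other promoters. The median member fragment was 695 bp long (93 to 3094 bp), with 60.2% G and C, beside 746 bp and 59.1% over all 7176 viewpoints. CpG was at more than 0.6 of its expected frequency in 62 members (86.1%), against 78.1% of all viewpoints. The erythroid GATA word AGATAA, searched on both strands, was present in 11 members (15.3%) and in 20.2% of all viewpoints. CCAAT was present in 41 members (56.9%) and 59.5% of all. The ETS word CCGGAAG was found in 27 members (37.5%) and 31.6% of all, and TATAAA in 13 members (18.1%) and 21.1% of all. These are counts of letters in fragments of unequal length and not of bound sites.

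Contacts of the members spread over distance much as those of other viewpoints. From 10 to 100 kb, the median share of a member's cis events was 18.3%, 16.4% and 16.4% in libraries a, b and c, a mean of 17.4% ± 1.31 (SD, n = 2). In the summed libraries it was 16.7%, beside 15.9% for all viewpoints. From 100 kb to 1 Mb the shares were 22.8%, 20.8% and 21.0%, a mean of 21.8% ± 1.31 (SD, n = 2), and 21.2% in the sum against 19.6% for all viewpoints. No test was made of the gaps between members and all viewpoints. Beyond 10 Mb both medians were 34.1%.

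The promoters with the 3 highest and the 3 lowest shares from 10 kb to 1 Mb are given as a description. Kat5, the TIP60 acetyltransferase, had the highest share of events, with 62.5%, 58.9% and 60.8% in libraries a, b and c. Smarcc2, a SWI/SNF core subunit, followed with 58.2%, 57.6% and 55.7%. Setdb1, which methylates histone H3 at lysine 9, had 59.1%, 56.6% and 54.6%. At the other end, the demethylase Kdm4c had 19.0%, 17.8% and 17.5%, and Smarcad1, a remodeller linked to heterochromatin upkeep, had 19.7%, 18.7% and 17.9%. Prmt9, an arginine methyltransferase, had 21.5%, 18.9% and 18.9%. For each of these 6 promoters the 3 libraries lay close together.

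**Figure D2:**
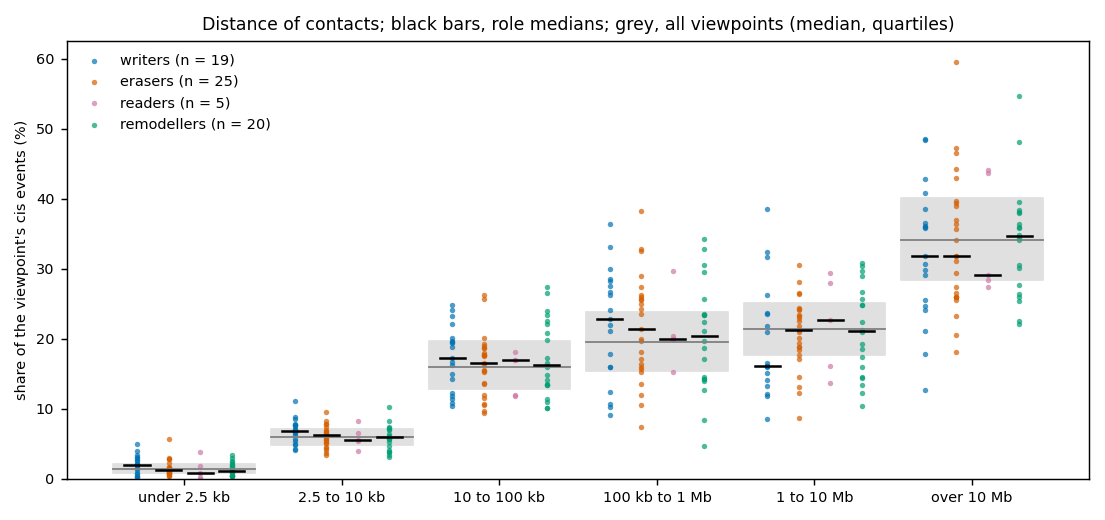
Share of each member's cis events in 6 distance classes, as percent of its events in the summed libraries. Points are the 69 members with at least 1000 events, black bars the medians of the 4 roles and grey bands the median and quartiles of all viewpoints; the 10 to 100 kb medians of the roles sit inside the grey band.

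Distal contacts were sought in 5 kb windows out to about 1 Mb. For each window an expected count was set from the viewpoint's total, the distance and the length of usable fragments, and a negative binomial upper-tail test was fitted over all viewpoints. A window was called at an adjusted p under 0.05 with more events than expected in each library, and ratios of observed to expected events are given as mean ± SD (n = 2). Members had 23 called windows of 27478 tested (0.0837%), beside 2436 of 2655717 over all viewpoints (0.0917%). They came from 13 of 69 members (18.8%), beside 19.5% of all viewpoints, so the members were called about as often as promoters in general. Neighbouring windows joined into 17 contacts, 9 upstream and 8 downstream of the gene, at 5 to 930 kb. In none of the 17 did a single fragment hold more than 50% of the events. With each library left out in turn, 3 of the 13 members kept a call every time, Setdb1 and Chd2 among them. The other 10 lost all calls in at least 1 case, named beside each below. Called windows of members fell from 23 to 17, 11 and 14 without a, b and c. Over all viewpoints they fell from 2436 to 2016, 1618 and 1529. How many of all viewpoints kept a call each time was not counted. With the dispersion of the test taken from all windows, 4 of the 13 members kept a call, Setdb1, Kat6a and Prmt3 among them, and the rest kept none. Called windows then numbered 6 for members and 734 over all viewpoints.

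Writers had 9 called windows from 6 of 19 usable viewpoints (31.6%), beside 19.5% of all viewpoints. Differences between the roles were not tested. Setdb1 had the lowest adjusted p among them. At 70 kb upstream of its promoter 56, 60 and 42 events were seen in libraries a, b and c, against 5.95, 8.86 and 8.53 expected, so the observed over expected ratio was 7.63 ± 2.52 (adjusted negative binomial p = 1.01e-06). The next window, 75 kb upstream, held the promoter of Arnt, a partner of the dioxin receptor, and had 4.58 ± 1.10 times the expected events (adjusted negative binomial p = 0.00398). All 3 libraries were high in both windows. Together they span chr3:95228769-95238768 (mm9), where annotation places the non-coding gene Gm4349 and the start of Arnt.

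The Setdb1 contact holds a copy of part of the viewpoint. Within it the fragment chr3:95231425-95232343 had 72 events, 25, 27 and 20 in the libraries, against 2.04 expected. It was the only single fragment called for any member (adjusted negative binomial p = 9.75e-06), so 1 of 69 members (1.45%) had a called fragment, beside 155 of 6718 viewpoints (2.31%). Of single fragments, 1 of 302823 was called for members (0.00033%) and 0.00086% for all viewpoints. These counts used the dispersion of all fragments. With the highest 0.1% left out, 11 fragments of 5 members were called, Kat7 and Kdm6a among the members, beside 1182 fragments over all viewpoints. The called Setdb1 fragment shares an unbroken run of 348 bases with the Setdb1 viewpoint of 1156 bases, in the opposite orientation. The 80 bases shown above were taken from it. In the viewpoint the run lies at chr3:95160758-95161105, mostly outside the 70 bases at each end. Of the 69 usable members, 8 had usable fragments within 1 Mb that shared 30 or more bases with their viewpoint, 438 fragments in all. Of these 220 had no event, and the next longest shared run was 79 bases. Reads from a copy cannot be told apart from reads of the viewpoint where their sequence is the same. With this fragment and all other sharing fragments left out, the window at 70 kb had 31, 32 and 22 events, 6.81 ± 2.44 times the expectation (adjusted negative binomial p = 9.76e-05). The window at 75 kb had 4.92 ± 1.18 times (adjusted negative binomial p = 0.00151). The neighbours of the copy stayed in these windows, and whether their events came from reads of the copy was not tested. Seen from the Arnt viewpoint the same pair of places had 1, 9 and 17 events, 0.745 ± 0.646 times the expectation, and was not called (adjusted negative binomial p = 1.00).

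The calls of the other writers had higher adjusted p values than the first Setdb1 window, though Kat6a had a higher ratio, and each of these writers lost all its calls when some library was left out. Kat6a, the MOZ acetyltransferase, had 2, 7 and 5 events at 375 kb downstream, in Gins4, a replication factor gene, or 11.1 ± 3.78 times the expectation (adjusted negative binomial p = 0.00679). That call was lost without library b and without library c. Setd3, which methylates actin, had 2, 14 and 10 events at 600 kb upstream, between genes, a ratio of 6.68 ± 3.63 (adjusted negative binomial p = 0.0129). A further call lay at 615 kb upstream, at the promoter of the transcription factor gene Yy1, with 3, 13 and 8 events and a ratio of 7.26 ± 1.41 (adjusted negative binomial p = 0.0183). Without library b neither Setd3 window was called. Setd2, the writer of H3K36 trimethylation, had 3, 3 and 10 events at the Nbeal2 promoter 120 kb downstream, a ratio of 6.13 ± 1.52 (adjusted negative binomial p = 0.0337). Nbeal2 is needed for platelet granules. Most of those events were in library c, and the ratios of 5.05, 3.00 and 11.4 lay wider apart than the SD shows. The Setd2 call was lost without b or without c, and the Nbeal2 viewpoint showed 1, 0 and 1 events back, 0.710 ± 0.439 times the expectation.

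Kat7, the HBO1 acetyltransferase, and Prmt3, which methylates a ribosomal protein, had their calls close by. Kat7 was called at 25 kb upstream, over the Fam117a promoter, with 23, 34 and 20 events and a ratio of 3.69 ± 0.415 (adjusted negative binomial p = 0.0267). It was also called at 55 kb upstream inside Fam117a, with a ratio of 3.36 ± 1.08 (adjusted negative binomial p = 0.0350). Both were lost without library b, and also when viewpoints on chromosome X and a deep stretch of chromosome 9 were left out of the fit. From the Fam117a viewpoint the contact held 51, 68 and 78 events, 2.23 ± 0.0197 times the expectation, and was not called (adjusted negative binomial p = 0.484). The ratios of 2.24, 2.03 and 2.39 in libraries a, b and c lay wider apart than that SD shows. Prmt3 had 94, 87 and 84 events in the window 5 kb upstream, in the direction of Htatip2, a ratio of 3.72 ± 0.687 (adjusted negative binomial p = 0.0182). The Prmt3 call was lost without library a, and also with those 2 regions left out of the fit.

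Erasers had 4 called windows from 3 of 25 usable viewpoints (12%), beside 19.5% of all viewpoints. Hdac4, a class IIa deacetylase, was called at 785 kb downstream in Ilkap, with 6, 12 and 12 events and a ratio of 8.19 ± 1.45 (adjusted negative binomial p = 0.0105). Its other window lay at 930 kb, at the promoter of Ube2f, a neddylation enzyme gene, with 5, 7 and 7 events and a ratio of 10.6 ± 1.22 (adjusted negative binomial p = 0.0135). Both Hdac4 calls were lost without b and without c, and 0, 1 and 2 events were seen from the Ube2f side against 1.19 expected in all, a ratio of 1.52 ± 2.14 on too few events to measure. The promoter fragment shared by Kdm4d and Cwc15 was called at 150 kb on the downstream side of Kdm4d, between genes, with 15, 27 and 22 events and a ratio of 4.44 ± 0.306 (adjusted negative binomial p = 0.0384). That call was lost without b and without c, and also with chromosome X and the deep stretch of chromosome 9 left out of the fit. Kdm6a, the UTX demethylase of H3K27, was called inside its own gene at 110 kb downstream with 53, 83 and 102 events, a ratio of 4.17 ± 0.221 (adjusted negative binomial p = 0.0307), and this was lost without library c.

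Among 5 usable readers, Brd7, a subunit of the PBAF complex, had the 1 call (20%, beside 19.5% of all viewpoints). The window 225 kb downstream, at the promoter of Heatr3, which has a part in ribosome assembly, had 4, 4 and 9 events against 0.407, 0.802 and 0.834 expected. The ratio was 8.86 ± 1.37 (adjusted negative binomial p = 0.0233), and the call was lost without a and without c. Seen from the Heatr3 viewpoint the contact held 7, 16 and 14 events, 4.06 ± 0.862 times the expectation, above it in each library but not called (adjusted negative binomial p = 0.221). Both Brd2 viewpoints, 2.03 kb apart, had no called window of their own.

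Remodellers carried 9 called windows from 3 of 20 viewpoints (15%, beside 19.5% of all viewpoints), and those of Chd2 and Smarcc1 are described. Chd2, a chromodomain remodeller, had 3 called windows upstream, in sequence without annotated protein-coding genes. At 10 kb, 26, 49 and 60 events gave a ratio of 3.08 ± 0.444 (adjusted negative binomial p = 0.0327). At 70 kb, 11, 20 and 25 events gave 5.47 ± 0.372 (adjusted negative binomial p = 0.000911), and at 75 kb the ratio was 4.90 ± 0.283 (adjusted negative binomial p = 0.0164). The libraries were close to each other in all 3 windows. Chd2 had 1 called window without library c, and 0 with the dispersion taken from all windows. Smarcc1, a core SWI/SNF subunit, had 6, 10 and 8 events at the Cdc25a promoter 255 kb upstream, 7.87 ± 2.35 times the expectation (adjusted negative binomial p = 0.0282). Cdc25a encodes a phosphatase that drives the cell cycle. That call was lost without a and without b, and from the Cdc25a side 2, 1 and 4 events gave 4.64 ± 0.854 (adjusted negative binomial p = 0.682).

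**Figure D3:**
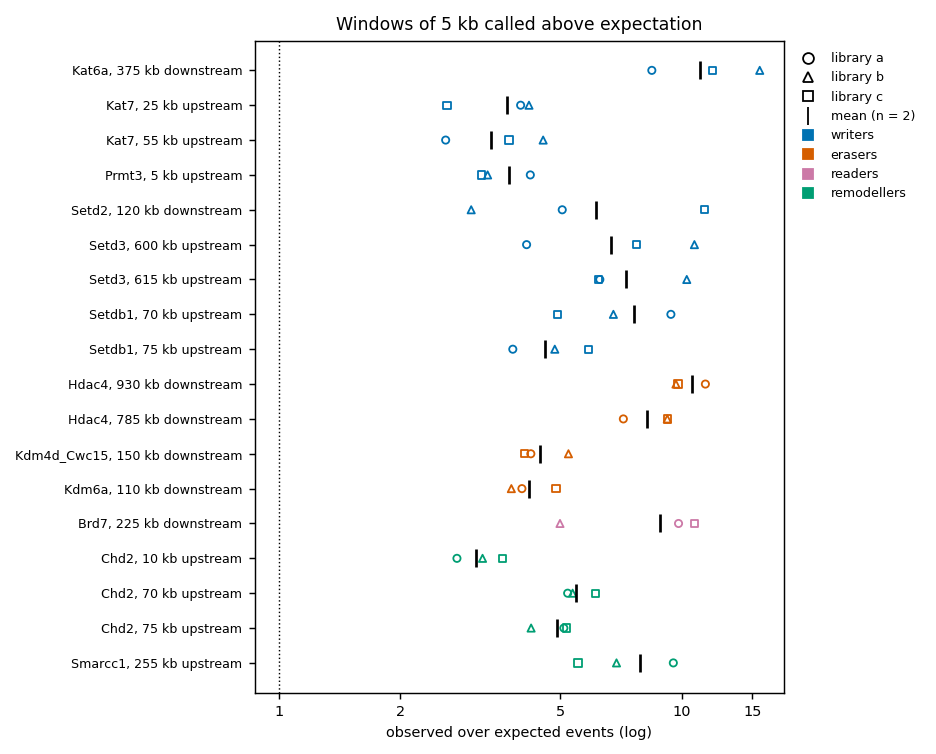
Observed over expected events (log axis) in 18 of the 23 windows called for members, by role and distance from the viewpoint. Open symbols are the 3 libraries, black ticks the mean (n = 2) and the dotted line marks 1; the Kat6a window has the highest mean plotted, 11.1.

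**Figure D4:**
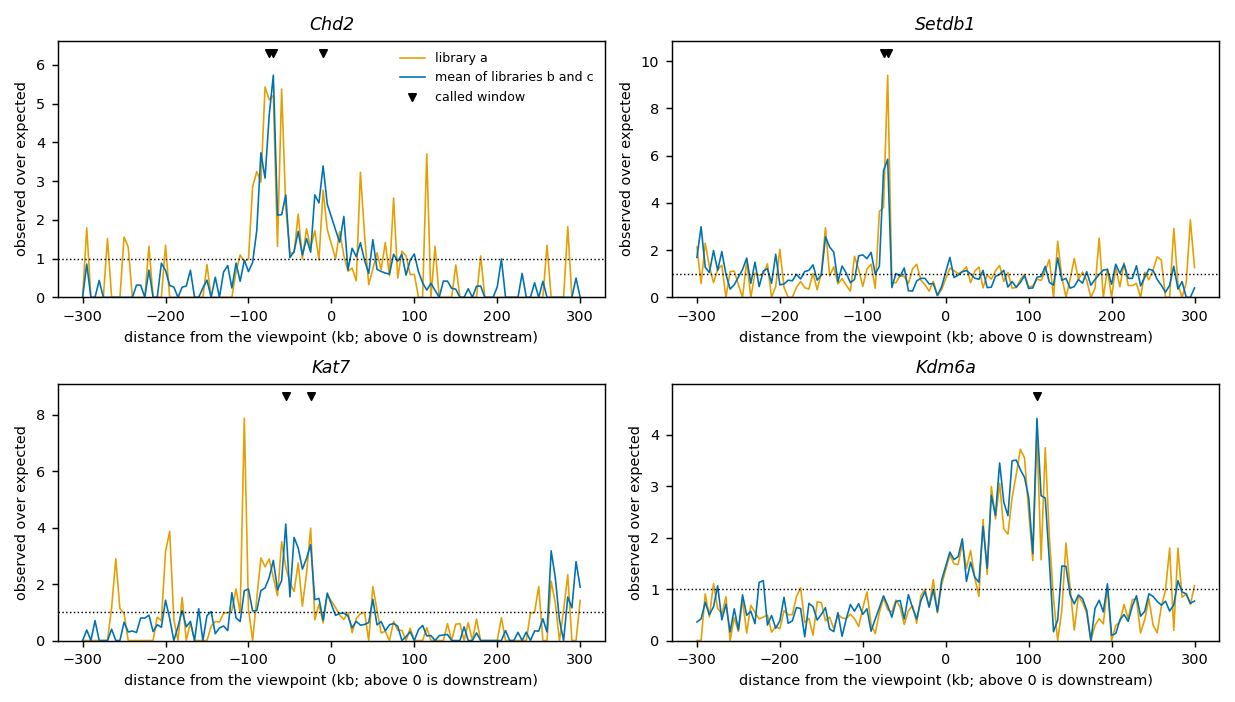
Observed over expected events in 5 kb windows within 300 kb of 4 member viewpoints, for library a and for the mean of libraries b and c. Distances above 0 lie downstream of the gene and triangles mark called windows; Chd2 and Kat7 rise upstream, Setdb1 has a narrow peak upstream at the copy and Arnt, and Kdm6a rises across its own gene and just past its end.

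The contacts of Kdm6a were raised over its own gene. The stretches compared here were chosen after the profiles had been seen. The gene is 117 kb long, and in the windows downstream inside it the viewpoint had 1554, 2574 and 2465 events, 1.96 ± 0.0775 times the expectation (SD, n = 2). Past the gene's end, from 120 to 230 kb, the ratio was 0.905 ± 0.0291, and over the mirror stretch upstream it was 0.763 ± 0.0126. The rise did not stop at the annotated end of Kdm6a. The first window past it, at 120 kb, had a ratio of 3.75 in library a and 2.77 in the mean of b and c, the next was above 1 in both, and at 130 kb the values were 0.812 and 0.171. Kat7 had the opposite profile. From 25 to 90 kb upstream, over Fam117a and beyond, it had 2.55 ± 0.149 times the expected events, and downstream 0.594 ± 0.0210 times. Chd2 had 2.22 ± 0.121 times the expected events upstream, out to 100 kb, and 1.18 ± 0.0738 times downstream.

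Kdm6a and Kat7 were the only members with contacts past 2-fold on one side in each library. Over 10 kb to 1 Mb the events of Kdm6a, relative to expectation, were 2.16, 2.23 and 2.24 times higher downstream than upstream in libraries a, b and c. For Kat7 the upstream side was 2.62, 2.26 and 2.18 times higher. The count of 2 in 69 (2.90%) stood beside 9.99% of all viewpoints. From 10 to 100 kb alone the order was the other way, with 5 of 69 members past 2-fold beside 410 of 6718 viewpoints. The median fold between the sides was 1.22 for members and 1.34 for all viewpoints. Just outside, Kdm4c was 2.31, 1.90 and 2.17 times higher downstream. With chromosome X and a deep stretch of chromosome 9 left out together, 1 member is left, beside 650 of 6359 viewpoints.

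Contacts over a member's own gene were then set against the mirror windows at the same distances on the other side, a comparison added after the Kdm6a profile had been seen. It could be made for 51 members, with a median gene length of 41.5 kb, and for 3697 viewpoints in all. The gene body was higher in each library for 17 members (33.3%), beside 37.7% of all viewpoints, and lower in each library for 15 (29.4%), beside 35.2%. The median ratio to expectation was 1.08 over member gene bodies and 1.06 over their mirror windows. Kdm6a stood highest, at 1.96 ± 0.0775 over the gene. Setdb1 had 1.16 over its gene and 0.434 over the mirror windows, and Kdm3a, a demethylase of H3K9 chosen after the values were seen, had 0.947 and 0.556. Chd2 ran the other way, with 1.16 over its gene and 2.15 upstream, as did Prmt3 with 1.01 and 1.87. Members thus showed no common preference for their own gene.

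**Figure D5:**
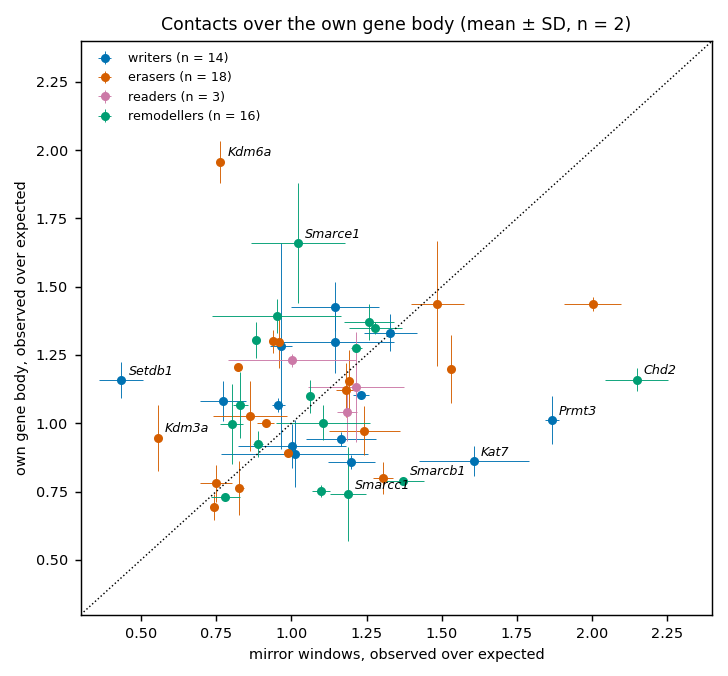
Observed over expected events over the own gene body (vertical) against the mirror windows on the other side of the promoter (horizontal), for 51 members by role. Points are means and bars SD (n = 2), and the dotted line marks equality; Kdm6a lies far above it, Chd2 and Prmt3 below.

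Windows that held another targeted promoter were richer in contacts. The members' events there were 1.67, 1.67 and 1.66 times the expectation in libraries a, b and c, and 0.974 times in windows with no promoter. The ratio between the 2 kinds of window was 1.71 ± 0.00153 (SD, n = 2) for members and 1.63 ± 0.0133 for all viewpoints. It was above 1 in each library for 57 of 64 members (89.1%), beside 87.0% of all viewpoints. Calls followed the same order, with 7 of 1059 promoter windows called (0.661%), beside 0.980% over all viewpoints, and 16 of 26419 others (0.0606%), beside 0.0615%. The targeted fragments themselves are not in the table, so these counts rest on their neighbours within the windows.

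The size of that excess varied with the member, and the extremes named here were picked from these values. Setd3 had 7.60 ± 3.83 times the expected events over its 2 promoter windows, and Brd7 had 5.30 ± 0.697 over 4, which include Heatr3. Kdm1a, with no called window, had 4.26, 3.88 and 3.59 times the expectation over 14 promoter windows, a mean of 4.00 ± 0.370. At the low end, Prmt2, an arginine methyltransferase, had 0.617, 0.833 and 0.686 times the expectation over 13 windows, below 1 in each library. Kat5 had 49 promoter windows within reach and 1.18 ± 0.0689 times the expected events.

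Looking in the other direction, windows that held a member promoter were called from other viewpoints in 8 of 1015 cases (0.788%), beside 0.980% of windows that held any promoter. Their events were 1.60 ± 0.00866 times the expectation. The H3K9 demethylase gene Kdm3a was reached by 3 viewpoints, at 360, 715 and 985 kb. The nearest, Krcc1, had 8, 13 and 21 events, a ratio of 6.82 ± 0.974 (adjusted negative binomial p = 0.0167). Smarcb1, a core SWI/SNF subunit, was reached from Gucd1 at 405 kb, with 12, 16 and 20 events and a ratio of 6.15 ± 0.172 (adjusted negative binomial p = 0.0350). On chromosome X, Kdm5c was reached from Phf8, itself a histone demethylase gene, at 715 kb, with 36, 80 and 62 events and a ratio of 5.90 ± 0.474 (adjusted negative binomial p = 0.0421). Chd1 was reached from Tbp, the TATA-binding protein gene, at 205 kb with 5, 5 and 8 events (ratio 7.21 ± 1.20, adjusted negative binomial p = 0.0291). The window of both Brd2 fragments was called from Zfp101 on 2, 1 and 4 events against 0.261 expected in all, too few for a firm ratio. None of the members named in this paragraph had a called window of its own, so these contacts were called from the other viewpoint only. Whether these calls hold with a library left out was not tested.

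Within 1 Mb there were 5 pairs of different member genes, too few to set beside the 0.980% of promoter windows called over all viewpoints. The lowest adjusted p, from Kat8 to Setd1a, missed the threshold. Kat8, the MOF acetyltransferase, had 3, 6 and 4 events at Setd1a, an H3K4 methyltransferase, 135 kb away, 4.87 ± 0.448 times the expectation (adjusted negative binomial p = 0.175), while Setd1a had 0, 1 and 2 events back, a ratio of 0.326 ± 0.461. Dnmt1 and Smarca4, 663 kb apart, had 0 events in all libraries from Dnmt1 against 0.769 expected, a contact that could not be measured at this depth. Smarcb1 and Prmt2, 316 kb apart, were below expectation from both ends, at 0.559 ± 0.270 and 0.442 ± 0.625. Other directions were above expectation on few events, with 1, 0 and 2 from Setd2 to Smarcc1 (5.68 ± 1.78), 2, 1 and 3 from Ino80e to Setd1a (1.75 ± 0.469), 0, 4 and 0 from Setd1a to Ino80e (3.20 ± 4.53) and 0, 0 and 3 from Smarca4 to Dnmt1 (2.07 ± 2.93). From Setd2 to Smarcc1 the ratios of 6.93, 0 and 8.85 in libraries a, b and c lay wider apart than the SD shows. From Smarcc1 to Setd2 0, 3 and 2 events gave 0.843 ± 1.19.

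For comparison, 60 viewpoints of other chromatin genes, from a fixed list of 99 symbols such as Polycomb, MLL and SWI/SNF partners, were read in the same way. Of the 56 with at least 1000 events, 15 had a called window (26.8%), 24 windows in all, and 8 were past 2-fold on one side (14.3%). The corresponding values for the members were 18.8% and 2.90%, and no test was made of the difference.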

How the data were processed

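NuTi Capture-C libraries were made by DpnII digestion, ligation and probe pulldown. The authors trimmed and aligned reads to mm9 (Trim Galore and Bowtie per the submitters' processing notes, versions not given in the sources used here) and deposited 1 signal value per viewpoint, fragment and library, unique contacts per 100000 cis contacts. The smallest value of each viewpoint and library was taken as 1 event, which gave whole events within 0.01 for all values. Members, gene lists and tests were chosen with earlier results of these data known.

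Windows of 5 kb from 2.5 kb to about 1 Mb were tested in viewpoints with at least 1000 cis events. Expected events came from the viewpoint's total, 200 distance classes and usable fragment length. An upper-tail negative binomial test, with dispersion per class estimated without the highest 0.1% of windows, was adjusted by Benjamini-Hochberg over all 2655717 windows. Every adjusted p given for a window is from it. Those of Setdb1 without sharing fragments come from a refit of this test. Single fragments were tested likewise with 50 classes and the untrimmed dispersion, adjusted over 28839713 pairs of viewpoint and fragment. The p-values are for summed libraries against the spread between windows, and do not measure spread between animals. Simulated counts were drawn from the test's own negative binomial model with its fitted dispersion. On them the window test called 40 of 100 windows raised 5-fold and 71 of 100 raised 10-fold, all with at least 2 events expected. There were 24 calls among unaltered windows. These rates do not cover counts that depart from the model, or windows with fewer expected events, such as that of Kat6a.

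Named genes were well-known members, the deepest and shallowest of each role, members with a called window or fragment, members past 2-fold on one side, and the 3 highest and 3 lowest shares from 10 kb to 1 Mb. Setd8, Dnmt3a, Sirt1 and Kat2a were not analysed here. One member's depth and another's distal contacts are not reported here. Alternatives changed the dispersion, window size, expectation, depth minimum, threshold, regions and libraries. Leaving out fragments that share 30 bases with the viewpoint, and the gene-body comparison, were added after seeing the data. Python 3.11.15, numpy 2.4.6, pandas 2.3.3, scipy 1.17.1 and matplotlib 3.10.9 were used.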

Additional observations from a re-analysis of the deposited data

How the results depend on the processing

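No paired analysis was possible because the 3 libraries form 1 group. The number of called member windows, 23, depended on the dispersion. It was 6 with the dispersion from all windows, 52 with the highest 1% left out and 1300 with Poisson counts, beside 734, 6742 and 146782 over all viewpoints (2436 as reported). It was 37 with expectation by number of fragments, 7 at an adjusted p of 0.01, 11 at a minimum of 5000 events and 11 to 17 with a library left out, beside 3893, 958, 1852 and 1529 to 2016. Without chromosome X and the deep stretch of chromosome 9 it was 17, beside 1854, and Kat7, Prmt3 and Kdm4d, outside those regions, had no call. Called fragments went from 1 to 11 and 38 with the highest 0.1% and 1% left out of the dispersion, to 1378 with Poisson counts (from 248 to 1182, 3747 and 176231 over all viewpoints) and to 0 without fragments that share sequence with the viewpoint, an alternative chosen after seeing the data. The causes were not tested. Members past 2-fold on one side numbered 5 from 10 to 100 kb, 14 from 100 kb to 1 Mb and 20 at 1.5-fold, beside 410, 1607 and 1903 of all 6718 viewpoints, and 1 at a minimum of 5000 events, 1 without chromosome X and the deep stretch of chromosome 9, and 2 to 4 with a library left out, beside 461 of 4347, 650 of 6359 and 682 to 725. A minimum of 5000 events kept 41 members. The 10 to 100 kb share was 23.9% of events within 10 Mb and 15.4% at a minimum of 5000 events, and the 100 kb to 1 Mb share 32.0% of events within 10 Mb. Events of members at promoter windows were 2.11 times expectation with viewpoints weighted equally, 1.54 in 10 kb windows, 1.43 by number of fragments, 1.68 at 5000 events, 1.65 without the deep regions and 1.66 to 1.67 with a library left out. For other viewpoints at member windows these were 2.02, 1.52, 1.38, 1.59, 1.57 and 1.59 to 1.61. All these stayed above 1. The gene-body count of 17 was 18 to 22 with a library left out. Its rule asks for each library and is easier to meet with fewer, so the rise is no test of that count. The 2-fold rule is also easier to meet with a library left out. Several called windows rested on expected counts under 1 per library, such as that of Kat6a.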
